A study of Arabidopsis thaliana with 12 samples.

Results

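The genes described here are AT5G40030, AT3G13150, AT3G13180 and AT2G30320 of Arabidopsis thaliana, 4 of the 691 genes that had a probe of their own on an array of 3439 probes. They had been grouped as genes for pentatricopeptide repeat proteins (AT5G40030 and AT3G13150), an RNA methyltransferase of the NOL1/NOP2/sun family (AT3G13180) and a protein of the pseudouridine synthase family (AT2G30320). Each had 1 probe, and no probe shared with another gene. The choice was made with their values in the same comparison known, so those values are given as a description of these samples. Neither annotation table used here gives any of the 4 loci a symbol or a description. The family names therefore come with the choice of genes and could not be checked. For AT5G40030 the pentatricopeptide repeat assignment is in doubt, and no role is given to that gene below.

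The samples were 6 of prors2, a mutant that the labels describe as having no prolyl-tRNA synthetase (prors2_dark), and 6 of wild type (WT2_dark), all of ecotype Columbia 0 and all dark-adapted overnight. Prolyl-tRNA synthetase joins proline to its tRNA for protein synthesis. The labels give neither tissue, age nor the nature of the mutant allele, and another label field calls all 12 samples wild type, so the groups rest on the sample titles. OVA6 (AT5G52520, also called PRORS1), a gene for this enzyme, was listed by 0 probes, so the titles could not be checked on it.

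Pentatricopeptide repeat proteins are a large plant family, most of which are imported into plastids or mitochondria, where they bind single transcripts and take part in their cleavage, splicing, editing or stabilisation. Proteins of the NOL1/NOP2/sun family transfer methyl groups to cytosines in ribosomal or transfer RNA. Pseudouridine synthases turn uridines of structural RNAs into pseudouridine after transcription. Members of these families are encoded by nuclear genes, and their products act on RNA. That is said of the families and is not extended to AT5G40030, whose assignment is in doubt.

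The scale of the arrays has to be known before any single gene is read. The median deposited intensity of a sample lay between 0.240 and 0.403 in prors2_dark, against 0.0620 to 0.0852 in WT2_dark, and 431 to 609 probes per sample were listed at 0 in prors2_dark, against 746 to 926 in WT2_dark. The summed intensity of a sample overlapped between the groups, at 2764 to 3404 in prors2_dark and 2556 to 3032 in WT2_dark. On the deposited scale 45.7% of 3438 features (probes, with those of 1 gene averaged) were higher in every prors2_dark sample than in every WT2_dark sample. Each gene was therefore read as its deposited intensity, as its percentile rank among the 3438 features of its own sample, and as its log2 intensity after quantile normalization with values at 0 left out. As an alternative, zeros were kept by adding 0.05 before the log2. The number of arrays limits the precision. Within prors2_dark, samples 1 and 2, 3 and 4, and 5 and 6 were alike (r of their deviations from the group mean 0.54 to 0.84 within these sets, against -0.63 to -0.22 between them). In WT2_dark the same sets were much less alike (-0.030 to 0.18 within, against -0.35 to -0.15 between). Nothing says whether samples of a set come from separate plants, so the spread between samples may be technical.

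All 4 genes had higher values in prors2_dark. In wild type AT5G40030 lay above the middle of the ranking of its sample in all 6 samples, AT2G30320 around it, AT3G13180 below it, and AT3G13150 was listed at 0 in all 6 wild-type samples. After normalization the log2 differences (prors2_dark minus WT2_dark) of the 3 genes that could be tested were 3.26 for AT3G13180, 2.29 for AT5G40030 and 2.05 for AT2G30320. In these extracts a higher level per cell and a larger share of cells with the transcript cannot be told apart.

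AT5G40030 had deposited intensities of 1.46, 1.47, 1.42, 1.47, 1.31 and 1.44 in prors2_dark samples 1 to 6. In WT2_dark samples 1 to 6 it had 0.166, 0.106, 0.0690, 0.145, 0.337 and 0.333. The groups did not overlap, and the lowest prors2_dark value was 3.87 times the highest WT2_dark value. The mutant samples lay close together, while wild-type samples 5 and 6 stood above the other wild-type samples. The coefficient of variation was 4.28% in prors2_dark and 59.8% in WT2_dark. The mean intensity was 1.43 ± 0.0611 in prors2_dark and 0.193 ± 0.115 in WT2_dark (SD, n = 6 each). Within its sample the gene ranked between percentiles 89.7 and 93.1 in prors2_dark, against 51.9 to 78.0 in WT2_dark.

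After normalization AT5G40030 differed by 2.29 ± 0.28 on the log2 scale (standard error). It was 2.49 between samples 1 and 2 of each group, 2.999 between samples 3 and 4 and 1.39 between samples 5 and 6, the last being the set in which the wild-type samples were high. With each sample centred on its median in place of quantile normalization the difference was 1.53.

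AT3G13180, of the NOL1/NOP2/sun family, had deposited intensities of 0.974, 0.689, 0.494, 0.466, 0.453 and 0.374 in prors2_dark samples 1 to 6. In WT2_dark samples 1 to 6 it was listed at 0, 0.00464, 0.0341, 0.0372, 0.00423 and 0.0298. Every mutant sample lay above every wild-type sample, and samples 1 and 2 were the brightest of the mutant samples. The means were 0.575 ± 0.222 in prors2_dark and 0.0183 ± 0.0171 in WT2_dark (SD, n = 6 each). Its percentile rank ran from 50.9 to 82.7 in prors2_dark and from 11.5 to 40.5 in WT2_dark, where 11.5 is the shared rank of the values at 0 in that sample.

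After normalization AT3G13180 differed by 3.26 ± 0.57 on the log2 scale (standard error), over 6 prors2_dark and 5 WT2_dark values, since WT2_dark sample 1 at 0 was dropped from the fit. With zeros kept and 0.05 added the difference was 1.81, so its size depends on how values near 0 are treated. Between samples 1 and 2 of each group it was 5.34, resting on a single wild-type value, between samples 3 and 4 it was 2.27, and between samples 5 and 6 it was 2.95. The SD of the normalized log2 values was 0.62 in prors2_dark and 1.396 in WT2_dark, the widest spread among the 3 tested genes in either group.

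AT2G30320, of the pseudouridine synthase family, had deposited intensities of 0.670, 0.597, 0.510, 0.636, 0.785 and 0.872 in prors2_dark samples 1 to 6. WT2_dark samples 1 to 6 had 0.0817, 0.0375, 0.0902, 0.0380, 0.0620 and 0.0507. The groups were apart, with a lowest mutant value 5.66 times the highest wild-type value. Here samples 5 and 6 were the brightest mutant samples, whereas for AT3G13180 and AT3G13150 these were samples 1 and 2. The means were 0.678 ± 0.131 in prors2_dark and 0.0600 ± 0.0222 in WT2_dark (SD, n = 6 each). The percentile rank ran from 66.2 to 82.0 in prors2_dark and from 36.7 to 57.9 in WT2_dark.

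After normalization AT2G30320 differed by 2.05 ± 0.26 on the log2 scale (standard error). It was 1.66, 2.005 and 2.48 in the 3 sets of consecutive numbers, in their order, and 1.97 with median centring. With zeros kept and 0.05 added it was 1.36, and this gene had no value at 0 in any sample. A constant added before the log2 pulls the dim wild-type values upward, which by construction lowers the difference.

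AT3G13150, a pentatricopeptide repeat gene by its assignment, was listed at 0 in all 6 WT2_dark samples. In prors2_dark samples 1 to 6 it had 0.356, 0.385, 0.0966, 0.114, 0.0858 and 0.110. Samples 1 and 2 stood well above the other mutant samples, which lay close together. The mean was 0.191 ± 0.139 in prors2_dark (SD, n = 6), and differences between the sets of consecutive numbers made up 99.1% of the sum of squares within that group. For AT5G40030, AT3G13180 and AT2G30320 that share was 47.9%, 82.0% and 83.2% in prors2_dark. In WT2_dark it was 93.0%, 76.6% and 2.46%, in the same order. The AT3G13150 values of prors2_dark samples 3 to 6 were all below the lowest median intensity of any prors2_dark array, so AT3G13150 was dim there too.

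Because wild type gave no value above 0, AT3G13150 could not enter the fit and no fold is given. Its percentile rank was 46.0, 49.8, 29.2, 30.9, 17.8 and 20.2 in prors2_dark samples 1 to 6, against 10.9 to 13.5 in WT2_dark, where it shared the lowest place with all other values at 0. On the log2(value + 0.05) scale the difference was 1.27 with a standard error of 0.26. The size follows the constant, being 2.61 with 0.01 and 0.53 with 0.2, and with median centring on the log2(value + 0.05) scale it was 0.51 and was not called. It was also not called on that scale with consecutive numbers averaged, where 10.5% of 3438 features were called higher. Its difference between the groups was 2.04, 1.20 and 0.59 in the 3 sets of consecutive numbers, in their order. It is one of 51 features at 0 in every WT2_dark sample and above 0 in every prors2_dark sample, 1.48% of all 3438.

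**Figure D1:**
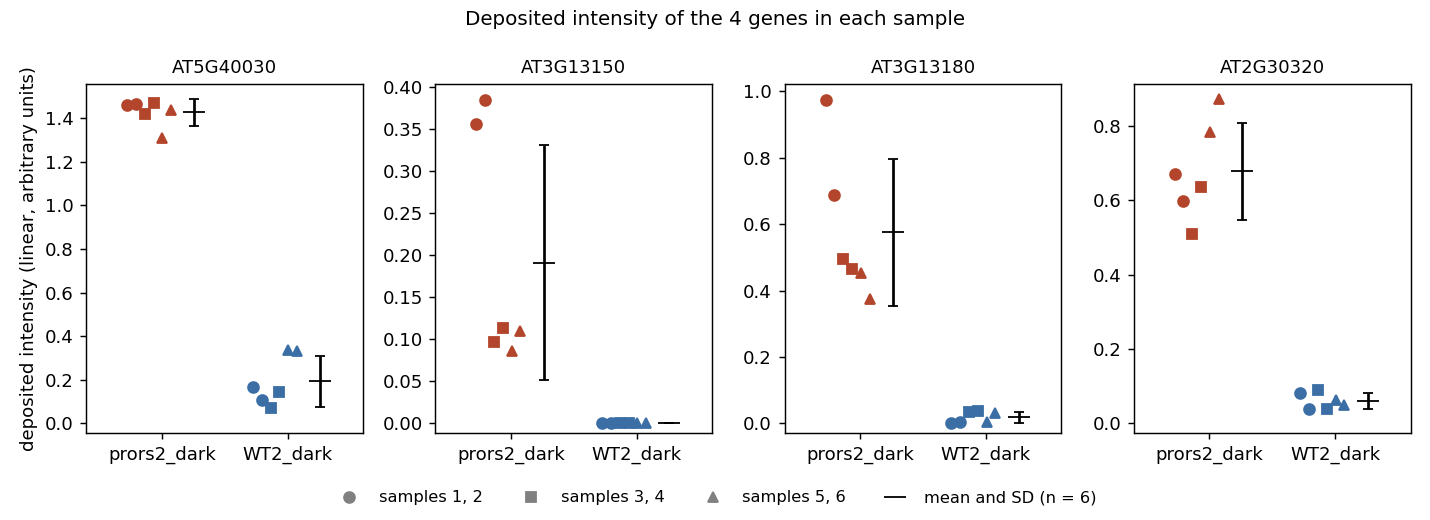
Deposited intensity (linear, arbitrary units, a separate axis for each gene) of the 4 genes in the 6 prors2_dark and 6 WT2_dark samples, with marker shape for consecutive sample numbers and the mean with its SD (n = 6) beside the points. In each gene the groups are apart, AT3G13150 is at 0 in all WT2_dark samples, and mutant samples 1 and 2 are the highest for AT3G13150 and AT3G13180 while samples 5 and 6 are the highest for AT2G30320.

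**Figure D2:**
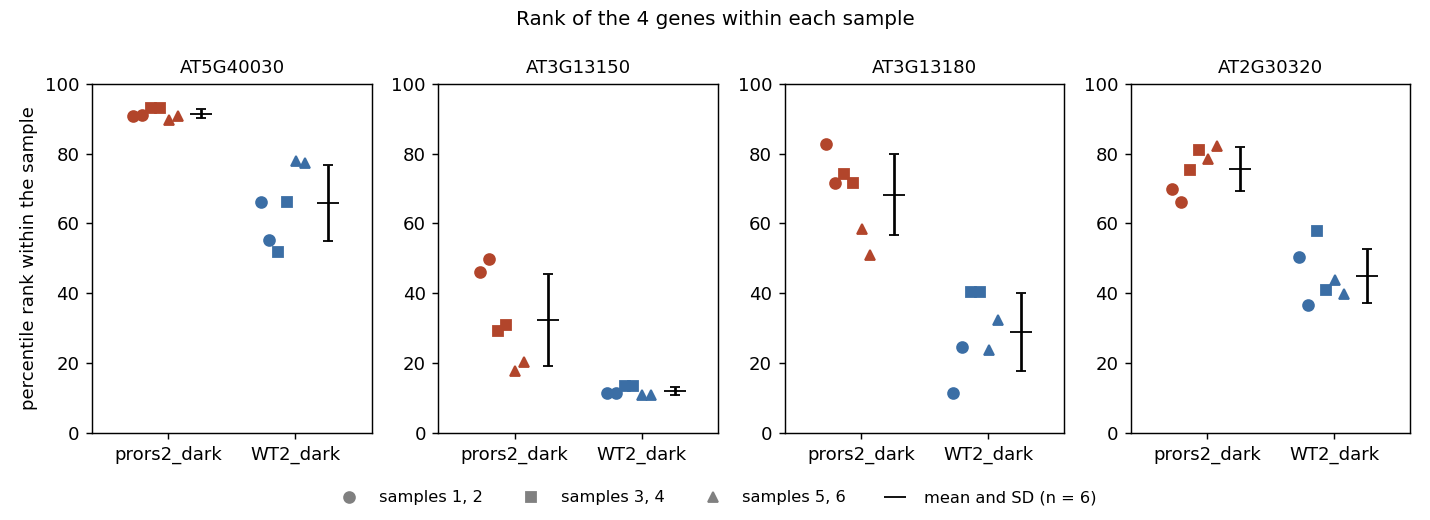
Percentile rank of each gene among the 3438 features of its own sample (values at 0 share the lowest place), for the 6 prors2_dark and 6 WT2_dark samples, with the mean and SD (n = 6). AT5G40030 lies between 89.7 and 93.1 in prors2_dark, against 51.9 to 78.0 in WT2_dark, and no gene has overlapping groups.

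The percentile ranks do not change with any rescaling that keeps the order within a sample. On that measure all 4 genes had non-overlapping groups with prors2_dark higher. The same held for 12.2% of the 3438 features, and since the genes were chosen from this contrast nothing is read from their count. The mean rank was higher in prors2_dark by 39.4 percentile points for AT3G13180, by 30.6 for AT2G30320, by 25.6 for AT5G40030 and by 20.4 for AT3G13150.

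Over the whole array limma called 671 of 2684 tested features higher in prors2_dark and 554, or 20.6%, lower (Benjamini-Hochberg adjusted p under 0.05). The 3 tested genes of the group were among those called higher, where 25% of all tested features and 31.5% of the 530 with 1 named gene were. With consecutive numbers averaged, 3 samples against 3, the same 3 genes were still called higher, against 12.5% of 2459 features. With zeros kept, all 4 were called higher, against 20.4% of 3438 features. As the contrast had served to choose the genes, these counts are given as description.

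Set against the whole distribution, the log2 difference of AT3G13180 exceeded that of 99.1% of the 2684 tested features, that of AT5G40030 95.01% and that of AT2G30320 93.2%. The median over all tested features was 0.094, and over those with 1 named gene 0.31. On the log2(value + 0.05) scale AT3G13150 exceeded 90.2% of 3438 features, with a median of -0.019.

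**Figure D3:**
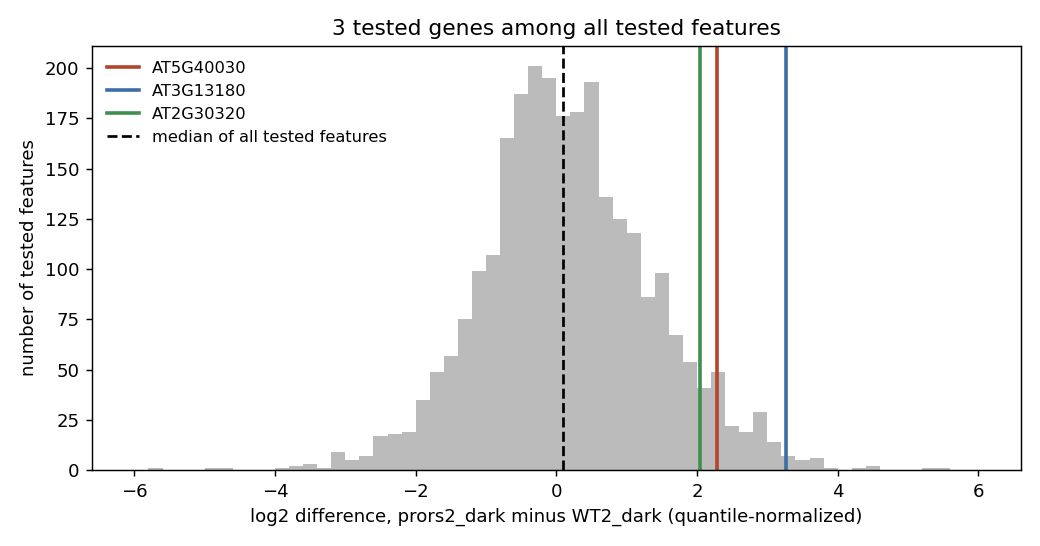
Histogram of the quantile-normalized log2 difference (prors2_dark minus WT2_dark) of the 2684 tested features, with vertical lines for AT2G30320 at 2.05, AT5G40030 at 2.29 and AT3G13180 at 3.26 and a dashed line for the median of all tested features at 0.094. The 3 genes lie in the upper tail; AT3G13150 had no value in this fit.

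The direction was the same on every scale tried, but the size was not. Without any normalization the log2 differences were 5.19 for AT3G13180, 3.56 for AT2G30320 and 3.12 for AT5G40030, on a scale where the median of all tested features was itself 1.49. With all 12 samples 671 features, or 25% of the 2684 tested, were called higher. With each of the 12 samples left out in turn, the 3 tested genes stayed among the 605 to 650 features called higher. As the genes were chosen from this contrast, that is given as description only. Without 1 sample the difference ran from 2.88 to 3.55 for AT3G13180, from 2.11 to 2.45 for AT5G40030 and from 1.94 to 2.19 for AT2G30320.

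**Figure D4:**
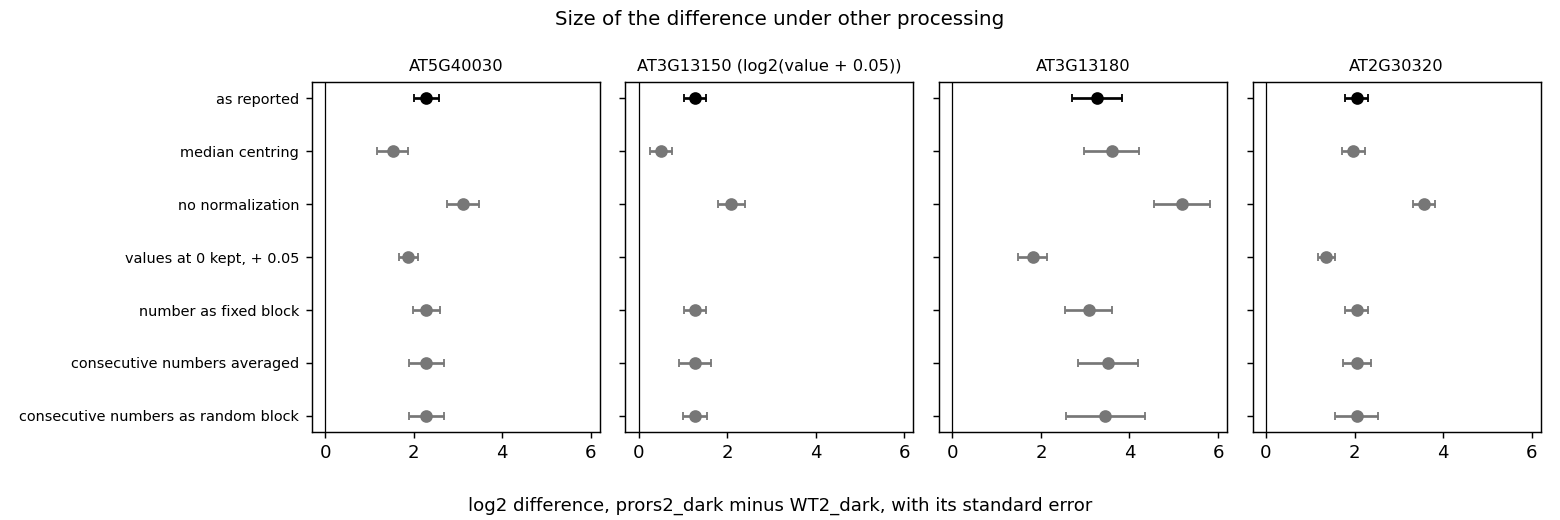
Log2 difference (prors2_dark minus WT2_dark) with its standard error for each gene under up to 7 ways of processing, with the reported value in black. AT3G13150 is throughout on the log2(value + 0.05) scale, so it has no separate point for values at 0 kept. All values lie above 0. Where no value is missing, averaging or blocking consecutive numbers cannot move a difference, and what it changes is the standard error. With the random block that error was 0.49 for AT2G30320 and 0.41 for AT5G40030, against 0.26 and 0.28 as reported. AT3G13180, with a missing WT2_dark value, had 3.45 (standard error 0.89) with the random block and 3.52 (0.68) with averaging. Its reported difference was 3.26 (0.57).

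Other genes of the pathway were looked for with a hand-made list of loci, since the tables hold no gene descriptions, and family members outside that list were not searched. Of 57 loci listed for organelle RNA processing, pentatricopeptide repeat proteins and RNA modification, 2 had a probe of their own, both pentatricopeptide repeat genes. Only 1 was tested, and 0 were called in either direction (limma), also at an unadjusted threshold of 0.05. Of all tested features 25% were called higher and 20.6% lower, and 1 tested gene cannot speak for these families. CRR21 (AT5G55740), needed in chloroplasts for editing of a transcript of the NDH complex, had mean intensities of 0.527 ± 0.0313 in prors2_dark and 0.292 ± 0.0585 in WT2_dark (SD, n = 6 each). Its percentile rank nevertheless ran from 57.9 to 78.7 in prors2_dark and from 70.5 to 80.7 in WT2_dark, so the groups overlapped. After normalization it differed by -0.36 ± 0.22 on the log2 scale (standard error), which did not pass (limma, adjusted p = 0.202). CRR21 passed as lower with median centring (-0.70, limma, adjusted p = 0.0141) and as higher as deposited (0.88, limma, adjusted p = 5.4e-04), so its direction turned with the scale. OTP85 (AT2G02980), also an editing factor of chloroplasts, was listed at 0 in 5 of 6 prors2_dark and 3 of 6 WT2_dark samples and was not tested. Its values above 0 were 0.0153 in prors2_dark sample 1, against 0.0425, 0.000501 and 0.0193 in WT2_dark samples 1, 2 and 3.

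None of the 9 listed loci for RNA methyltransferases and pseudouridine synthases had a probe of its own. A search of gene symbols and synonyms for the same terms matched 91 loci, of which 0 had such a probe. That search cannot find a gene without a descriptive symbol, the 4 genes described here included, so other genes of these families may be on the array. Of 9 loci marking green tissue, 5 had a probe, and these ranked at percentile 93.0 or higher in all 12 samples, with 0 of 5 called (limma), against 25% of all tested features called higher and 20.6% lower. One of them, LHB1B2 (AT2G34420), nevertheless had groups that did not overlap, with intensities of 13.0 to 26.8 in prors2_dark and 34.9 to 41.4 in WT2_dark. None of the 5 root loci had a probe.

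AT3G13150 and AT3G13180 are close in the genome, with 3 protein-coding genes between them in the TAIR10.1 gene table. On the other side of AT3G13150, with 2 genes between, lies AT3G13120, which also had a probe of its own. AT3G13120 had 0.104, 0.104, 0.0689, 0.125, 0.161 and 0.210 in prors2_dark samples 1 to 6, while WT2_dark samples were at 0 except sample 6 with 0.00961. It was not tested for lack of wild-type values, and its ranks overlapped between the groups, from 18.3 to 32.8 in prors2_dark and from 10.99 to 24.99 in WT2_dark. Near AT5G40030, AT5G40050 was at 0 in all prors2_dark samples and above 0 in 2 of 6 WT2_dark samples. No gene within 3 protein-coding genes of AT2G30320 had a probe of its own.

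Likeness of pattern was measured as Pearson's r of the percentile ranks over the 12 samples, between each gene and 690 other genes with a probe of their own. The samples are the same for all genes and fall into the 2 groups, so a high r mainly reports a similar gap between them, and the value with group means removed is given beside it. For AT3G13180 the most similar were AT5G63490 (r = 0.95, 0.73 with group means removed), AT2G46050 (0.94 and 0.75) and AT1G62150 (0.93 and 0.64). For AT2G30320 they were AT4G17440 (0.95 and 0.70), AT2G37000 (0.95 and 0.70) and AT4G16490 (0.95 and 0.68).

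For AT3G13150 the most similar were AT4G33500 (r = 0.94, 0.87 with group means removed), AT4G31210 (0.93 and 0.88) and AT5G25990 (0.92 and 0.82). AT5G25990 had a mean intensity of 0.166 in prors2_dark and was at 0 in WT2_dark, as AT3G13150 was. For AT5G40030 they were PPDK (AT4G15530, pyruvate orthophosphate dikinase; r = 0.94, 0.68 with group means removed), AT5G38310 (0.92 and 0.64) and AT2G32040 (0.92 and 0.59). PPDK had mean intensities of 0.800 in prors2_dark and 0.146 in WT2_dark. None of the 4 genes appeared among the 3 most similar of another, and the median r over the 690 genes lay between -0.11 and -0.039.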

How the data were processed

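Total RNA was measured by array in 6 prors2_dark and 6 WT2_dark samples, grouped by title. The deposited intensity values are linear, from 0 to about 100 in every sample. The labels and headers state no scaling or background step by the authors, and the rest of their processing was not given in the sources used here. Of 3439 probes, 692 list 1 gene, 870 several and 1877 none in the platform annotation, and 690 of the 692 matched the TAIR10.1 gene table. Values at 0 were set missing, the rest taken to log2, quantile-normalized, averaged over probes of a gene, and fitted with limma 3.58.1 (lmFit, eBayes; R 4.3.3) where each group had at least 3 values, with Benjamini-Hochberg adjustment over 2684 features. The genes and lists were chosen with earlier results of these data known, so the 4 genes get no test of their own. The genes named were the 4, the listed loci with a probe, the 3 most similar genes and those within 3 protein-coding genes. Alternatives were another normalization, zeros kept, filters, blocks and samples left out. The fit was tested on simulated data. Deviations of same-numbered samples of the groups were weakly and positively correlated for every number (r = 0.053 to 0.16), above 0.1 for some numbers but not all. Numbers were not treated as pairs in the main fit.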

Additional observations from a re-analysis of the deposited data

Results flagged for a closer look

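AT5G40030 in prors2_dark had 1 value far from the others: sample 5 with 1.31, where the other 5 lay between 1.42 and 1.47. Its gap to the nearest value was 0.710 of the group's range, above Dixon's 95% limit for 6 samples. Of 7 groups of values examined for such a sample this was the only one, and chance flags about 1 group in 20. The group is tight, and without sample 5 the normalized log2 difference of AT5G40030 was 2.33, against 2.29 with it.

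AT3G13150 lay outside the fit, as it was listed at 0 in all 6 WT2_dark samples, while its mean intensity in prors2_dark was 0.191. Mutant samples 1 and 2 averaged 0.370, samples 3 and 4 averaged 0.105 and samples 5 and 6 averaged 0.0979. Whether the higher median intensity and fewer values at 0 of the prors2_dark arrays have a part in this was not tested.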

How the results depend on the processing

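Each processing choice was changed on its own. The number of features called higher was 671 and that called lower 554. Without normalization these were 1869 and 144, with consecutive numbers averaged 307 and 208, and with them as a random block 358 and 313. Median centring gave 905 lower. Leaving out 1 sample gave 605 to 650 higher and 507 to 537 lower. With the replicate block (sample number 1 to 6) they were 669 and 539. No call of the 3 tested genes changed with that block, where 25% of all tested features were called higher in the main fit. These genes were chosen from this contrast, so their calls are given as description only. Without normalization the log2 differences were 3.12 (AT5G40030), 5.19 (AT3G13180) and 3.56 (AT2G30320), with values at 0 missing. For AT3G13150 it was 2.09, on the log2(value + 0.05) scale, which is not the same measure. Median centring moved AT5G40030 to 1.53 and, on the log2(value + 0.05) scale, AT3G13150 to 0.51. Keeping zeros with 0.05 added moved AT3G13180 to 1.81 and AT2G30320 to 1.36. AT3G13150, reported at 1.27 on the scale with 0.05 added, had 2.61 with 0.01 and 0.53 with 0.2, both chosen after the data were seen. Without 1 sample it ran from 1.11 to 1.43. It had no value with zeros missing, and AT3G13180 had none among features above 0 in all 12 samples. Apart from the construction of the constant, the cause of these shifts was not tested. No background level or detection call was used here, so how far the wild-type values lie above background is unknown.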
